A study of Mus musculus with 6 samples.

Results

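Cytosines that were neither clearly unmethylated nor fully methylated in mouse round spermatids were followed into 5 haploid embryonic stem cell lines. A cytosine was taken as partly methylated where it lay on chromosomes 1 to 19, reached 10 reads in each of the 6 libraries and was methylated in 10% to 90% of its round spermatid reads, both bounds included. Of 227992 cytosines on these chromosomes with that depth, 12303 (5.40%) were partly methylated, 45261 were above 90% and 170428 were below 10%. The round spermatid level chose the members, so that level is given below as a description. It also divides the share kept, a ratio defined below, and comparisons of that ratio are therefore given without a p.

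Reduced representation bisulfite sequencing was used, in which genomic DNA is cleaved with MspI at CCGG, a size fraction is kept, unmethylated cytosines are converted by bisulfite and the products are sequenced. All libraries are labelled C57BL/6. The androgenetic haploid embryonic stem cell (AG-haESC) lines come from blastocysts that carry only a paternal genome, and they were cultured with feeders in 2i medium, which contains inhibitors of kinases. WT replicate 1 (line AGH-OG3, passage 31) and WT replicate 2 (line AGH-2, passage 18) are wild type. DKO replicate 1 (AGH-4, passage 32), DKO replicate 2 (OG3-2, passage 31) and DKO replicate 3 (AGH-2, passage 29) carry deletions of the H19 DMR and the IG-DMR, elements that control imprinted domains. Each line is 1 library, and the labels do not say whether the lines came from separate embryos. Round spermatids, the haploid germ cells that follow meiosis, were taken from testis as 1 library without replicate, so every round spermatid value below is from that library. The deleted elements could not contribute members, because a member needs reads in every library, so the members do not check the genotype labels.

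In mammals most methylation lies on cytosines followed by guanine (CpG), and male germ cells acquire a nearly complete pattern before meiosis, apart from CpG islands and other protected sites. A haploid cell holds 1 copy of unique sequence. There, a level between the extremes can mean that some molecules carried the mark and others did not. Intermediate levels are known from the borders of CpG islands. Naive ES cells in 2i are known for low genome-wide methylation.

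The upstream sequences of 5 genes show what partly methylated cytosines look like in their sequence context. They were chosen after the values were seen, from the promoter windows with at least 2 members. They show an isolated site (Pde8b), members of nearly equal level (Dpp7, Gp1bb), members of graded level (Cabp1) and members with high levels in some lines (Ggt1). Each is the 250 bases before the gene start, 5′ to 3′ on the strand of the gene, from RefSeq, assembly GRCm38.p6 (the mm10 assembly), with the CpGs that hold a member in capitals. Bases are counted from 1 at the 5′ end. The positions are chr13:95223093-95223342 for Pde8b (minus strand), chr2:25356333-25356582 for Dpp7 (minus), chr5:115186122-115186371 for Cabp1 (minus), chr10:75573245-75573494 for Ggt1 (plus) and chr16:18622404-18622653 for Gp1bb (minus).
Pde8b: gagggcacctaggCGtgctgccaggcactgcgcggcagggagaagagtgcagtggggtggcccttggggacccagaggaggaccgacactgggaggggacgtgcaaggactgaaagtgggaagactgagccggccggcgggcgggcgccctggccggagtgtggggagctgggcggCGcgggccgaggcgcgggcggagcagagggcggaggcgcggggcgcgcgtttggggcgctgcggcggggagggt
Dpp7: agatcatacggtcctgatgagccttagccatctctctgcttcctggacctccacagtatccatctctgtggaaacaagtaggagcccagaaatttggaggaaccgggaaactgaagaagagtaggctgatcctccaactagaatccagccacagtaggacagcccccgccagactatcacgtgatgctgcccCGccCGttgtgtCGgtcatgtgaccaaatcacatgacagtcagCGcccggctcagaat
Cabp1: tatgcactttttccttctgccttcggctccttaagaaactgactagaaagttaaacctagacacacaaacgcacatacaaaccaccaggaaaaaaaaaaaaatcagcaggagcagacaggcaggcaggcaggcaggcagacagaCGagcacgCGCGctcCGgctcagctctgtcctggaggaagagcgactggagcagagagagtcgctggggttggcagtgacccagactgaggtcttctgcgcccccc
Ggt1: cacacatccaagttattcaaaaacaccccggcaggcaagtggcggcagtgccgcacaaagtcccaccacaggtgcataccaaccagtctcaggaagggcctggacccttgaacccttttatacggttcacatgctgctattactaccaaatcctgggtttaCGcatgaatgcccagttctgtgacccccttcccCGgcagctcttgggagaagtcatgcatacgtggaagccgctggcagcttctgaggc
Gp1bb: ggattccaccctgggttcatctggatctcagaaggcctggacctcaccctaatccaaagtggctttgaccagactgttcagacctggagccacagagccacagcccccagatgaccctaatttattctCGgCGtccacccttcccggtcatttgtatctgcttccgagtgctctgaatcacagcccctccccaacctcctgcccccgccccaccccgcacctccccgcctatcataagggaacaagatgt

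Pde8b encodes a cAMP-specific phosphodiesterase, and 2 of its 21 measured cytosines were members. The member at base 177 of the Pde8b window was at 43.6% in round spermatids, while the measured Pde8b cytosines at bases 179 and 174 were both at 0%. The other Pde8b member, at base 14, was at 87.7% in round spermatids, 51% and 0.0352% (WT) and 0% in each DKO line. Dpp7, which encodes a lysosomal dipeptidyl peptidase, had 4 members at 12.3% to 12.5% in round spermatids, and their mean was at most 0.213% in every line. The fifth measured Dpp7 cytosine, at base 241 and next to the member at base 237, was at 0.211%. In Cabp1, which encodes a calcium-binding protein, the 4 members ran from 10.3% to 19.8%, and DKO replicate 3 had a mean of 10.9% over them against 0.0836% to 3.92% in the other lines. The fifth measured Cabp1 cytosine, at base 152 between the members at bases 146 and 154, was at 7.38% in round spermatids. The 2 members of Gp1bb, a platelet glycoprotein gene, were at 34.0% and 34.2% in round spermatids, and their mean was 8.38% in DKO replicate 2 and at most 0.306% in the other lines. Ggt1, which encodes gamma-glutamyltransferase, had 2 members at 71.4% and 71.6% in round spermatids. The Ggt1 member at base 163 reached 70.4% and 64.0% (WT) and 39.3%, 38.5% and 0% (DKO), and the one at base 196 reached 46.8% and 0% (WT) and 3.72%, 26.4% and 52.4% (DKO). Each of the 2 sites was at 0% in a line where the other was above 50%. Where the lines are listed in this way, they stand in the order of their replicate numbers.

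The members spread over the whole range of levels with no peak in the middle. Their median round spermatid level was 49.7%, and each 10-point bin held between 1352 cytosines (50% to 60%) and 1773 (10% to 20%). The highest bin, 80% to 90%, held 1695. The bins thus differed little, with slightly more members near either bound than in the middle. Just inside and outside the bounds, 203 cytosines lay at 9% to 10%, 235 at 10% to 11%, 191 at 89% to 90% and 190 at 90% to 91%, so the bounds cut through an even stretch of levels.

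**Figure D1:**
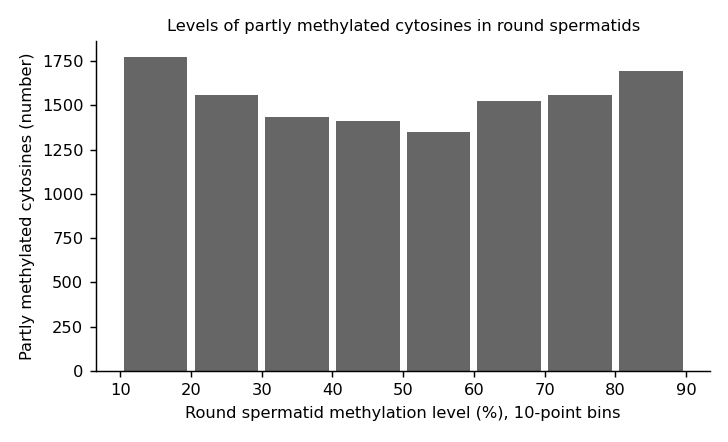
Number of partly methylated cytosines (vertical axis) by round spermatid methylation level in percent (horizontal axis, 10-point bins, 1 library). Counts lie between 1352 and 1773, with the lowest bar at 50% to 60%.

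Depth was sufficient for most members to be placed within the bounds. The median member had 337 round spermatid reads, and 9907 members (80.5%) had at least 100. The median width of the Wilson 95% interval of a member's level was 9.35 percentage points, and for 10751 members (87.4%) the whole interval lay within 10% to 90%. Reads were amplified by PCR and carry no molecular identifiers, so these intervals cover counting error only. In the lines the median member had 294 to 347 reads. Members were found on every autosome, at 4.63% of the measured cytosines on chromosome 11 and up to 6.44% on chromosome 6.

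Partly methylated cytosines were mostly low in the stem cell lines. Their mean level was 21.0% and 10.7% in the WT lines and 13.2%, 18.6% and 12.9% in the DKO lines, against 49.7% in round spermatids. The lines AGH-OG3 and OG3-2 were the highest and the passage 18 line the lowest. Over the 5 lines this is 15.3% ± 4.34 (SD, n = 5). For cytosines above 90% in spermatids the line mean was 20.1% ± 5.32 (SD, n = 5), and for those below 10% it was 1.47% ± 0.491 (SD, n = 5). Members exceeded the cytosines below 10% by 13.8 points, in 5 of 5 lines (exact two-sided sign-flip permutation test over lines, p = 0.0625, Benjamini-Hochberg adjusted 0.075 over 6 tests), and 0.0625 is the smallest p that 5 lines can give. No sign-flip test over 5 lines can therefore pass 0.05.

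As a share of the round spermatid mean over the same cytosines, called the share kept here, the lines kept 30.7% ± 8.73 (SD, n = 5) at members and 20.1% ± 5.34 (SD, n = 5) at cytosines above 90%. The divisor of this share is the level that chose both classes, so the difference of 10.6 points is a description without a test. In raw levels the order turned, and members minus cytosines above 90% came to -4.79 points, an alternative added after seeing the data.

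Across the range of partial methylation the level in the lines was higher where the round spermatid level was higher, but far less than in proportion. In WT replicate 1 members at 10% to 11% in round spermatids were at 13.3% and those at 89% to 90% were at 25.1%. In WT replicate 2 the same bins were at 7.74% and 15.0%. Over the 5 lines, 10-point bins ran from 11.1% ± 3.0 (SD, n = 5) at 10% to 20% up to 18.9% ± 4.78 (SD, n = 5) at 80% to 90%. Below the members, cytosines at 0% in round spermatids averaged 1.29% in the lines, those at 1% to 5% averaged 8.38% and those at 9% to 10% averaged 9.21%. Between the first and last percent of the member range the line mean went from 9.84% ± 2.57 to 19% ± 5.06 (SD, n = 5). Members at 50% or more in round spermatids kept 24.8% ± 6.94 (SD, n = 5) of their level and those below 50% kept 45.0% ± 13.1 (SD, n = 5), a difference of -20.2 points, whereas the raw level of the upper group was 4.63 points higher. The split and the divisor use the same round spermatid level, so no test is given.

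**Figure D2:**
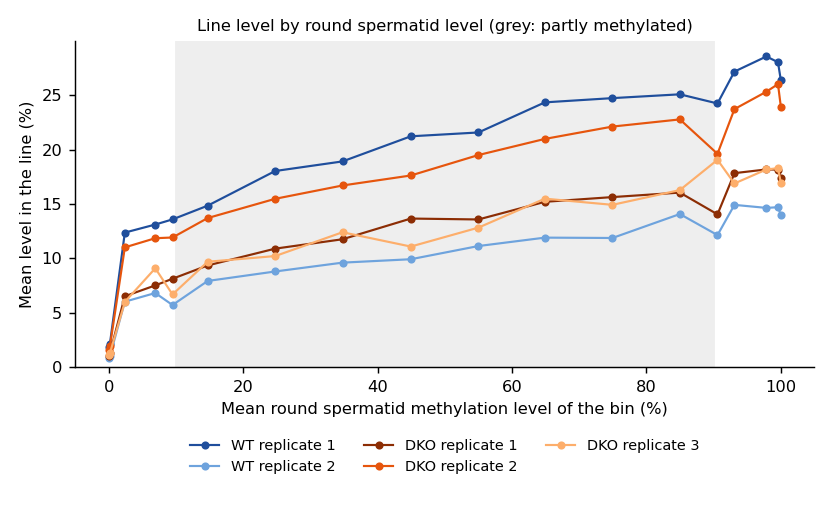
Mean methylation level in each line in percent (vertical axis) for cytosines grouped by round spermatid level (horizontal axis, bin mean in percent), with the partly methylated range in grey and 1 point per line and bin. Lines rise from 11.1% on average at 10% to 20% to 18.9% at 80% to 90%, and WT replicate 1 and DKO replicate 2 lie above the other 3 lines within the grey range.

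Single members did not follow that average closely. Between 50.1% and 70.1% of members were below 10% in a given line, 3047 members (24.8%) were below 10% in all 5 lines, and 1141 (9.27%) had no methylated read in any line. At the other end, 3900 members (31.7%) were at 50% or more in at least 1 line, of which 2371 were so in exactly 1 line, and only 36 were so in all 5. All 5 lines lay below round spermatids at 8176 members (66.5%) and above them at 96 members. At 11 of those, every line was at least 25 points above. As a description across members, which share libraries and fragments, Pearson's r between 2 lines ran from 0.254 (WT replicate 2 and DKO replicate 3, both named AGH-2) to 0.404 (WT replicate 1 and DKO replicate 2, both named OG3). Between a line and round spermatids r ran from 0.0993 to 0.134 over the 12303 members. The rule bounds the round spermatid level of members but not their level in the lines. These r therefore cannot be compared with those between lines.

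Double-knockout and wild-type lines were not told apart at these cytosines. The mean over members was 14.9% ± 3.20 (SD, n = 3) in DKO and 15.8% ± 7.34 (SD, n = 2) in WT lines, a difference of -0.951 points (exact two-sided permutation test, p = 0.9, adjusted 0.9), where 2 against 3 lines cannot give a p below 0.1. The WT replicates lay on either side of all 3 DKO lines. The difference was 4.24 points without WT replicate 1 and -6.14 without WT replicate 2. Leaving out a DKO line gave -0.120, -2.80 and 0.0613 points for DKO replicates 1, 2 and 3, so its sign rests on single lines.

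Cytosine by cytosine, edgeR's quasi-likelihood test was fitted over all 142691 cytosines with both methylated and unmethylated reads in the lines. It called none at an adjusted p under 0.05, a background of 0%, and none of the 11162 members tested. The other 1141 members had no methylated read in any line. The lowest adjusted p was 0.952. At an unadjusted p under 0.05, 144 members (1.29%) were higher and 204 (1.83%) lower in DKO lines, where all tested cytosines gave 0.915% higher and 1.04% lower. limma on logit levels also called none. At an unadjusted p under 0.05 limma had 237 members (2.12%) higher and 431 (3.86%) lower in DKO lines, where all tested cytosines gave 1.54% higher and 2.18% lower. The likelihood ratio test of edgeR called 0.00491% of all cytosines and 1 member, and the quasi-likelihood fit with a block for the shared line names called 0.000701% and 1 member.

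The 3 members with the smallest unadjusted p in the edgeR quasi-likelihood test are given as a description. Near Rn18s-rs5, a ribosomal RNA related sequence on chromosome 17, the member at position 39844615 was at 14.4% in round spermatids, 1.64% and 0.732% in the WT lines and 0.0115% to 0.0327% in the DKO lines, with 69795 or more reads in each library (adjusted p = 0.952 by edgeR, and 0.0134 by edgeR with the block). Its neighbour at 39844621, near Rn18s-rs5, was at 15.5% in round spermatids, 1.40% and 1.38% in WT lines and 0.0113% to 0.267% in DKO lines (adjusted p = 0.952 by edgeR). The member in Gm42144, chromosome 5 position 105502065, was at 11.8% in round spermatids, 21.0% and 26.0% in WT lines and 0% in the 3 DKO lines (adjusted p = 0.952 by edgeR). These 3 members were picked by that p, so the distance between their WT and DKO levels follows from the choice. The member that the likelihood ratio test of edgeR called, named after its values were seen, lay 9652 bp from E230001N04Rik on chromosome 17 and was at 75.3% in round spermatids, 100% and 99.7% in WT lines and 0.149%, 0% and 0% in DKO lines (adjusted p = 0.0357).

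Few members could be placed at an edge or inside a uniform stretch. For each member the other measured cytosines within 500 bp were averaged on either side in round spermatids. Of the 12303 members, 157 (1.28%) were edges, with a mean of at least 80% on one side and at most 20% on the other, and these fell in 152 clusters. A further 943 (7.66%) lay inside methylated sequence, with at least 80% on both sides, and 1229 (9.99%) inside unmethylated sequence, with at most 20% on both. The largest group, 5814 members (47.3%), had measured neighbours on 1 side only, 1740 (14.1%) had none and 2420 (19.7%) had other levels on both sides. Cytosines below 10% lay inside unmethylated sequence in 76.8% of cases, and those above 90% inside methylated sequence in 20.8%. Members had a median of 2 measured neighbours within 500 bp, as did cytosines above 90%, against 13 for cytosines below 10%, so most members lacked a measured flank on at least one side.

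**Figure D3:**
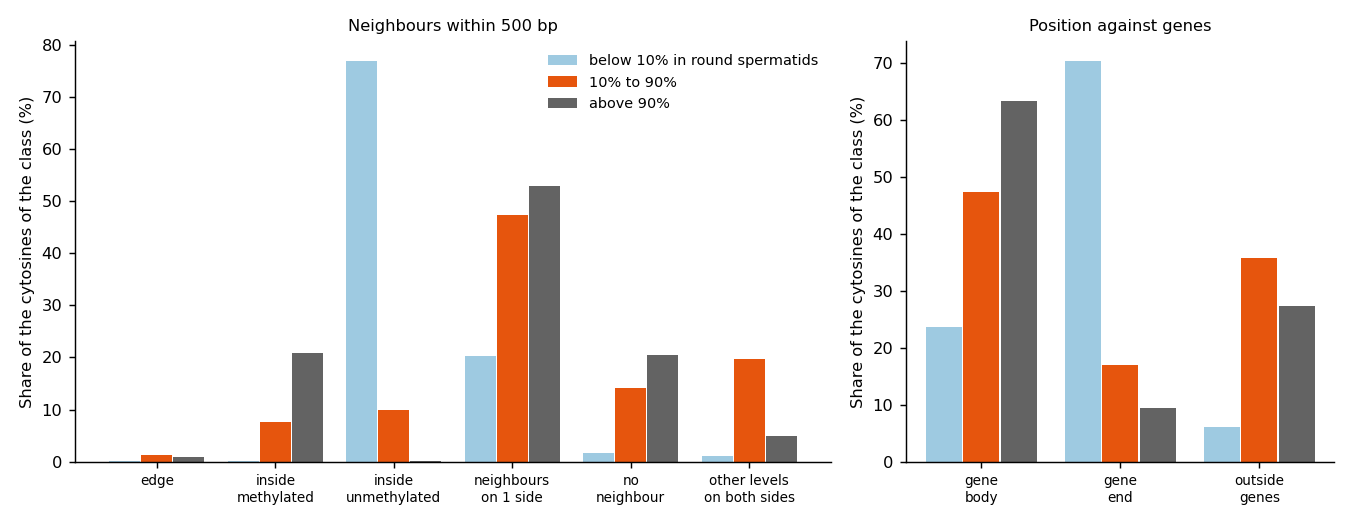
Share in percent (vertical axes) of the cytosines below 10%, at 10% to 90% and above 90% in round spermatids that fall in each class of neighbours within 500 bp (left) and each position against genes (right). Bars are single shares over all cytosines of a class. Members lie at gene ends in 17.0% and outside genes in 35.7% of cases.

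Close neighbours of a member were partly methylated far more often than the 5.40% of all measured cytosines, but their levels often differed. Of the measured neighbours 2 to 10 bp from a member, 50.9% were partly methylated themselves, 26.7% were below 10% and 22.4% were above 90%. At 51 to 100 bp, 25% were partly methylated and 53.8% were below 10%. The median absolute difference between a member and such a neighbour was 17.0 points at 2 to 10 bp and 28.2 points at 51 to 100 bp. Pearson's r between a member and its neighbour was 0.596 and 0.409 at these distances. Over all measured pairs r was 0.936 and 0.865. The rule cuts a member's level to 10% to 90%, while all pairs span the whole range, so these r cannot be compared. These values are a description, since neighbours can share reads. Among the 852 pairs of positions 1 bp apart, which may be the 2 strands of a CpG, 95 held a member and 27 held 2, and the median absolute difference in those with a member was 30.7 points.

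Edge members marked steps that were far smaller on average in the lines. Around the 157 edges the round spermatid mean was 94.2% on the methylated side, 49.1% at the member and 6.41% on the unmethylated side, which is how edges were chosen. In WT replicate 1 the methylated side was at 23.0%, the member at 17.1% and the unmethylated side at 18.8%. In WT replicate 2 these were 12%, 10.1% and 7.34%, in DKO replicate 1 14.7%, 10.5% and 8.46%, in DKO replicate 2 20.5%, 16.0% and 14.1%, and in DKO replicate 3 14.5%, 11.7% and 11.4%. The former methylated side was higher in 5 of 5 lines, by 4.92 ± 1.41 points (SD, n = 5; exact two-sided sign-flip permutation test, p = 0.0625, the smallest possible, a result added after seeing the data), against 87.8 points in round spermatids. Edge by edge the sides nearly balanced in several lines: 67 to 86 of the 157 edges were higher and 57 to 59 lower on the former methylated side, and the rest were equal. Only 2 to 4 of the 157 edges met the 80% and 20% bounds in any line, and 7 to 15 had a step of 50 points or more.

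**Figure D4:**
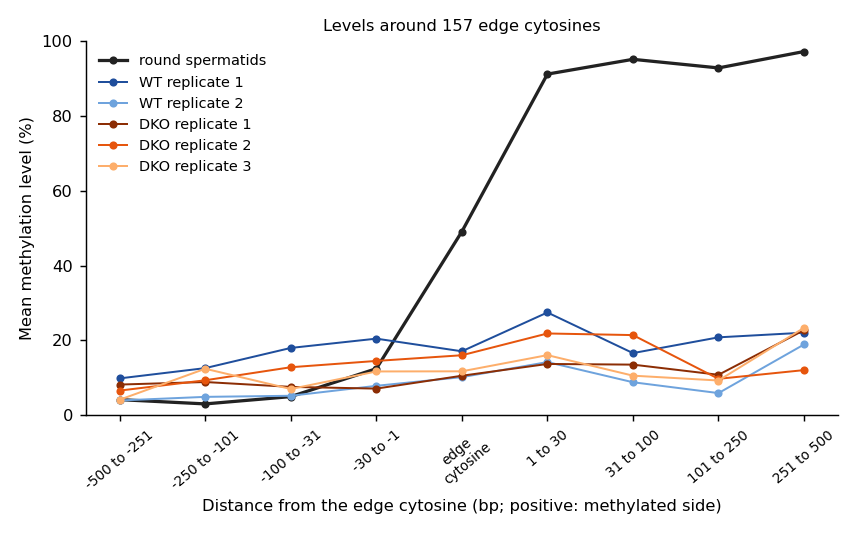
Mean methylation level in percent (vertical axis) of measured cytosines by distance from 157 edge cytosines in bp (horizontal axis, bins, positive towards the methylated side) in round spermatids and the 5 lines. Round spermatids go from 12.4% in the last 30 bp before the edge to 91.2% in the first 30 bp after it, while the lines stay between 3.9% and 27.5% in all bins. The farthest bin on the methylated side holds 16 neighbours.

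At the edge cytosines themselves the lines kept 26.7% ± 6.56 (SD, n = 5) of the round spermatid level, and at the 943 members inside methylated sequence 30.2% ± 7.85 (SD, n = 5). The divisor of this share was 49.1% in round spermatids at edges and 63.3% inside methylated sequence, so no test is given. The difference of -3.60 points was negative in 5 of 5 lines, but it was 2.12 points with at least 50 reads per library, where 82 edges remained. With reads pooled over cytosines it was 5.31, so its direction depends on these settings. It was -6.06 points in raw line levels, -0.123 points with neighbours within 250 bp and -0.510 with bounds of 30% and 70%. Among members at 40% to 60% in round spermatids, the lines averaged 12.1% ± 3.4 (SD, n = 5) at the 42 edges, at the 189 inside methylated sequence 18.5% ± 6.36 and at the 177 inside unmethylated sequence 7.23% ± 3.39 (both SD, n = 5). At like round spermatid levels, a member inside unmethylated sequence was thus on average lower in the lines than one inside methylated sequence. That ordering was not tested.

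The 5 sharpest steps, among 862 members with at least 3 measured neighbours on either side and with or without the 80% and 20% bounds, are described one by one. In Rp1l1, a photoreceptor gene on chromosome 14, the member at 64011834 was at 11.5% in round spermatids between sides of 100% and 7.65%. At Rp1l1 the former methylated side was at 29.5%, 20.4%, 0%, 12.3% and 1.08% over the 5 lines in order, and the other side at 3.77%, 0.148%, 0.112%, 7.40% and 15.6%, so the direction differed between lines. In Klhl17, which encodes a kelch-domain protein, the member at 156233907 on chromosome 4 was at 53.3% between 85.7% and 2.21% and at 0% in each line. The former methylated side of Klhl17 was at 17.0% in WT replicate 1, 2.70% in DKO replicate 3 and 0% in the others. Near LOC115490388 on chromosome 6 the member at 3201496 was at 84.9% between 91% and 7.21%, and each line was at 0% there too. The methylated side near LOC115490388 was nevertheless the higher one in each line, at 1.90% to 19.8% against 0% to 3.04%. Near Rpl7-ps8, a ribosomal protein pseudogene, the member at 59194685 on chromosome 15 was at 42.4% between 97.4% and 18%, and the methylated side stayed the higher one in the 5 lines, at 11.7% to 39.7% against 0% to 12.4%. In B4galnt4, a glycosyltransferase gene, the member at 141068705 on chromosome 7 was at 46.9% between 79.1% and 0.505%. At B4galnt4 the edge cytosine itself reached 43.0% and 28.8% (WT) and 0.123%, 59.1% and 48.2% (DKO), above both of its sides in 4 of 5 lines.

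Members were found mostly in gene bodies and outside genes. A gene end was taken as within 1 kb of either end of a gene, since the gene table gives no strand, and exons and introns were not assigned. Gene bodies held 5813 members (47.2%), gene ends 2094 (17.0%) and sequence outside genes 4396 (35.7%). Of cytosines below 10% in round spermatids 70.2% were at gene ends and 6.18% outside genes, and of those above 90% 9.41% were at gene ends and 27.3% outside genes. Members thus lay outside genes more often than either class, by these shares.

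Members at gene ends were lower in the lines than members elsewhere. Their mean was 15.2% and 7.5% in the WT lines and 9.67%, 13.7% and 9.56% in the DKO lines. Outside genes it was 23.9% and 12.3% in the WT lines and 15.2%, 20.7% and 14.7% in the DKO lines, higher in each line. The divisor of the share kept was 41.5% in round spermatids at gene ends and 51.7% outside genes, so its comparison is given without a test. The share kept was 26.8% ± 7.75 at gene ends and 33.6% ± 9.22 outside genes (both SD, n = 5), a difference of -6.75 points, negative in 5 of 5 lines. In raw line levels it was -6.22 points. It was -22.0 points with reads pooled over cytosines and -9.63 among members at 40% to 60%, where the means were 12.1% ± 4.08 and 16.9% ± 5.30 (SD, n = 5).

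Promoters rarely held members. Measured cytosines fell in the promoter windows (250 bases before to 50 after a gene start) of 5353 genes, and 134 of these (2.50%) had a member there, 30 of them 2 or more. Every measured cytosine in these windows was part of a CpG, in all 3 classes. Of the 171 members in promoter windows 38 (22.2%) lay in the CCGG that MspI cuts, against 42.8% of the 264 cytosines above 90% and 11.1% of the 32698 below 10%. CCGG reads the same on both strands, and 53.5% of all 31396 promoter windows hold it. Members in CCGG averaged 45.3% in round spermatids and 5.57% to 14.0% in the lines, and members at other CpGs 38.3% and 3.11% to 8.50%, lower in each library.

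Members gathered into clusters when chained at gaps of at most 500 bp. There were 8151 clusters, of which 5741 were single cytosines, 1510 held 2 and 900 held 3 or more, with 3542 members (28.8%) in the last group. The median cluster of 3 or more had a round spermatid mean of 47.5% and a mean over lines of 11.5%. All 5 lines were below 10% in 203 of them (22.6%), all 5 were above round spermatids in 5, and none of the 900 had 50% or more in all 5 lines.

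The largest clusters were deeply read and fell into 2 kinds. At and near Rn18s-rs5, an 18S ribosomal RNA related sequence on chromosome 17, 3 clusters held 47, 44 and 27 members (39847445 to 39848799, 39845350 to 39846790 and 39843014 to 39844660). The Rn18s-rs5 clusters averaged 28.6%, 27.6% and 39.8% in round spermatids. Over the lines they averaged 1.2% ± 1.12, 0.374% ± 0.250 and 0.254% ± 0.154 (SD, n = 5). Their median depth in round spermatids was 5532, 8954 and 595 reads per cytosine. Without the deepest 1% of cytosines in any library, the first Rn18s-rs5 cluster was at 3.33% in the lines and the third at 0.0665%. The copies of a repeated gene cannot be told apart in these counts. By contrast, 2 clusters on chromosome 2 (98666262 to 98667255, 29 members, and 98662265 to 98662911, 15 members) were as high in the lines as in round spermatids. They are named by the nearest gene, Gm33780, which lay 35344 bp from the first and 39688 bp from the second. The first Gm33780 cluster was at 40.2% in round spermatids and at 55.3% and 31.9% in the WT lines and 42.3%, 55.3% and 45.7% in the DKO lines. The second was at 45.2% in round spermatids against a line mean of 41.3% ± 7.84 (SD, n = 5). Median depth over the members of this second cluster was 2437 reads in DKO replicate 3 and 2199 in round spermatids. Single members were read far more deeply than that median in round spermatids. Alignment to repeats was not tested.

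The other large clusters were lower in the lines than in round spermatids. Zfp36l2, which encodes an RNA-binding protein that promotes mRNA decay, had 16 members (chromosome 17, 84185713 to 84186548) at 32% in round spermatids against a line mean of 1.25% ± 1.27 (SD, n = 5), and all 26 other measured cytosines within 500 bp were below 10% in round spermatids. Zbtb12, a zinc finger gene on the same chromosome, had 14 members (34895599 to 34896641) at 59.2%. In the lines Zbtb12 was at 9.14% and 0.723% (WT) and at 7.25%, 9.09% and 0.0159% (DKO). Bend3, which encodes a transcriptional repressor, had 14 members (chromosome 10, 43510798 to 43511716) at 38.3% in round spermatids, 22.2% in WT replicate 1 and 6.67% to 10.3% in the other lines. Gm38699 (12 members) and a cluster 19329 bp from Gm40853 (10 members), both on chromosome 12, were at 40.4% and 25.6% in round spermatids, with line means of 0.220% ± 0.457 and 0.0275% ± 0.0121 (SD, n = 5).

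Clusters at the extremes of the line mean held few members. The 6 highest, each with 3 members, were at Rpl19-ps10, Skint6, Dusp27 and Prl3a1, 12637 bp from Gm9637 and 65390 bp from Gm35386. Rpl19-ps10, a ribosomal protein pseudogene, was at 64.6% in round spermatids and at 83.5% and 41.5% in the WT lines and 65.5%, 85.3% and 89.2% in the DKO lines. Skint6, of a family of immunoglobulin-like genes, was at 71.6% in round spermatids and had a line mean of 68.2% ± 11.6 (SD, n = 5), or 56.1% with at least 20 reads per library. The cluster nearest Gm9637 was at 54.6% and 67.2% ± 18.2, and that nearest Gm35386 at 63.9% and 60.2% ± 23.3 (SD, n = 5). Prl3a1, a prolactin family gene, was at 49.4% in round spermatids and from 25.6% in WT replicate 1 to 100% in WT replicate 2. Its 3 members spanned 12 bp and had equal round spermatid levels, at median depths of 18 to 109 reads in the lines. The lowest depth was 11 reads at Rpl19-ps10 and 13 at Skint6. At the low end, 8 clusters of 3 or more had no methylated read in any line, and the 6 named by more members, then depth, were at Tsc22d2, Pdpn, Dock3, C77080 and Gm13136 and 17805 bp from Gm28863. The Tsc22d2 cluster (5 members, chromosome 3, 58417179 to 58417252) was at 45.4% and the Pdpn cluster (podoplanin, 5 members, chromosome 4, 143287361 to 143287529) at 45.1% in round spermatids, and the lowest depth was 35 and 17 reads. The other 4 named were at 23.3% (Gm13136) to 58.5% (C77080) in round spermatids, with Dock3, an exchange factor of Rac, at 51.8%.

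The clusters with the widest spread over the lines were mostly high in 1 or 2 lines. Matn1, which encodes a cartilage matrix protein, had 4 members (chromosome 4, 130945846 to 130945882) at 53.9% in round spermatids. Matn1 reached 22.9% and 1.47% (WT) and 90.9%, 99.3% and 25% (DKO). DKO replicate 3 was close to WT replicate 1 at Matn1, and the cluster was chosen for its wide spread over the lines. The quasi-likelihood test called none of its cytosines. Dusp27, a phosphatase family gene, was at 34.1% in round spermatids and at 100%, 0%, 33.3%, 60.2% and 100% in the lines in the same order, at median depths of 20 to 145 reads. The clusters nearest Car8 (128955 bp away) and Kap (16529 bp away) and the one at Gm36920 were highest in DKO replicate 3, at 100%, 94.8% and 93.0%, where the median depth was 27, 10 and 142 reads. The next line was at 24.4% near Car8, 62.7% near Kap and 24.6% at Gm36920. Adjacent members of these clusters share reads, and the number of molecules behind them is not known from the counts.

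**Figure D5:**
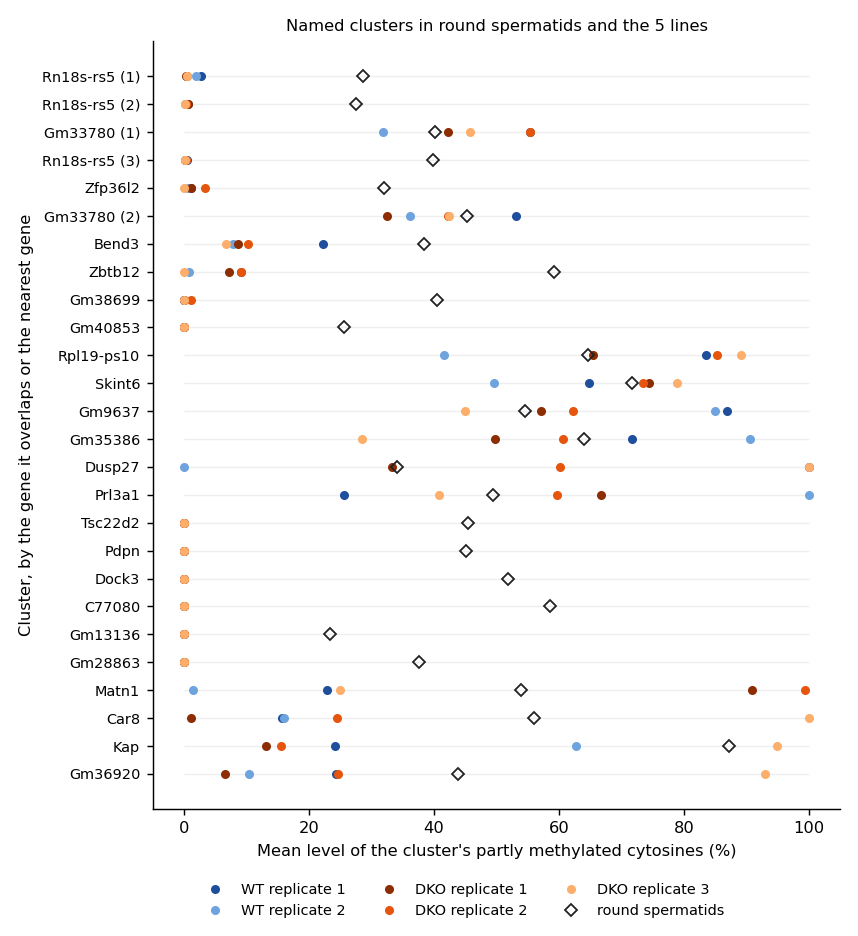
Mean level in percent (horizontal axis) of the members of 26 named clusters (vertical axis, by gene) in round spermatids (open diamonds) and the 5 lines (points, 1 library each). Points gather near 0 at the Rn18s-rs5 clusters and from Tsc22d2 to Gm28863, lie around the diamonds at Gm33780, and spread widest at Matn1 and Dusp27.

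Genes of germ cell, imprinting, pluripotency and methylation lists held single members or pairs, and none held a cluster of 3 or more. Members fell in or within 1 kb of 3523 of 13677 measured protein-coding genes (25.8%). The corresponding counts were 4 of 9 pluripotency genes, 4 of 8 genes of the methylation machinery, 2 of 8 germline genes, 2 of 6 spermatid genes, 2 of 16 maternal and 2 of 4 paternal germline DMR genes, 1 of 4 feeder fibroblast genes and 0 of 8 testis somatic genes. By cytosine, 3.30% of those measured at all protein-coding genes were members, against 3.23% for the methylation machinery and 4.72% for pluripotency genes. Over the lists this share ran from 0% (testis somatic genes) to 4.84% (paternal germline DMR genes). In Tet2, which encodes an enzyme that oxidises methylcytosine, 2 of 26 cytosines were members, at 74.9% in round spermatids, 0.137% in DKO replicate 2 and 0% in the other lines. The 2 members at Lin28a, an RNA-binding pluripotency gene, were at 26.8% in round spermatids, and every line was at 0%. The single members at Klf4 and Utf1, transcription factor genes of pluripotent cells, were at 34.5% and 29.8% in round spermatids and at most 0.110% in the lines. At Esrrb, a nuclear receptor gene, the single member was at 42.3% in round spermatids and at 22.2%, 0%, 8.40%, 21.8% and 31.8% in the lines in the order above. At Peg10, an imprinted gene, 2 members were at 70.4% in round spermatids and at 28.7%, 21.5%, 0.154%, 0% and 42.1% in the lines. The member at H19, whose control element is deleted in DKO lines, was at 75.7% in round spermatids, 20.6% and 1.26% in WT lines and 3.43%, 21.0% and 9.03% in DKO lines.

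Cytosines near the starts of maternal germline DMR genes were read as a partial check for other cells in the round spermatid library. Somatic cells carry methylation on the maternal copy of these DMRs and male germ cells do not. Within 1 kb of the starts of 11 maternal germline DMR genes, 179 measured cytosines held no member, and gene means ran from 0% to 0.813% in round spermatids and from 0% to 2.74% in the lines. The check covers only the measured cytosines near those starts. Near the starts of Rasgrf1 and Zdbf2, genes of paternal DMRs that male germ cells methylate, round spermatids were at 0.0168% and 0.0456%. A start window therefore need not hold the DMR, and the check cannot decide whether other cells were present. Elsewhere in or within 1 kb of listed genes, round spermatids were at 100% over the 2 measured cytosines of Mest and at 75% over the 4 of Peg13, and members lay at Peg10 (2, above) and Zrsr1 (1, at 22.5%). At Peg3, whose 3 measured cytosines lay farther from the start, round spermatids were at 0.0547% and the lines at 8.97% to 54.3%.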

How the data were processed

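Members and gene lists were chosen with earlier results of these data known. Reduced representation bisulfite libraries of 2 WT lines, 3 DKO lines and 1 round spermatid sample were used. Each deposited file gives, per the file headers, 2 counts per cytosine, of methylated and of unmethylated reads, and their level as a fraction, without strand. The build mm10 and the tool Bismark 0.12.2 are listed in the submitters' processing notes. For trimming and duplicates nothing was given in the sources used here; duplicates would make levels appear more precise than they are. Reads summed over cytosines ranged from 197728785 to 293920118 per library.

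Levels were recomputed from the counts with Python 3.11.15, numpy 2.4.6 and pandas 2.3.3. A group mean is the mean of the cytosines' levels. Exact permutation tests were two-sided, with p adjusted by Benjamini-Hochberg over 6 tests. Those on the share kept are not printed, because its divisor is the level that chose the members. DKO and WT lines were compared with edgeR 4.0.16 (limma 3.58.1 as alternative, R 4.3.3) on methylated and unmethylated counts, with library terms and a common dispersion, adjusted over all cytosines tested. The code was tested on simulated data. The labels do not say that the lines came from separate embryos, so the tests cover the spread among these samples, which may be technical.

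Clusters chain members at gaps of at most 500 bp and take the gene they overlap or the nearest one. Named were the 10 with most members, of those with at least 3 members the 6 highest and 6 lowest in the lines and the 5 with the widest SD, the 5 sharpest edges, and the 3 members with the smallest unadjusted p. Genes with working symbols (Gm, LOC, Rik) were named only where no other gene lay within 10 kb. Genes, promoters and their sequences come from RefSeq (GRCm38.p6). Alternatives were minimum depth, level bounds, deep cytosines, joined positions, pooled reads, neighbour windows and leaving out each line.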

Additional observations from a re-analysis of the deposited data

How the results depend on the processing

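Across alternatives the excess of members over cytosines below 10% stayed positive, between 12 and 14.8 points, and the lower share kept at gene ends than outside genes stayed negative, between -22.0 and -6.08. The step across edges in the lines stayed positive, between 4.16 and 6.27 points. The difference in share kept between members and cytosines above 90% was 9.38 to 11.4 points when each line was left out in turn, and -4.79 with the level of the lines in place of the share kept. The difference between members at 50% or more and below 50% was -21.8 to -18.0 when each line was left out, and 4.63 with the level in place of the share. The edge difference was -4.15 to -2.97 when each line was left out, 2.12 with at least 50 reads and 5.31 with pooled reads, and -11.2 among members at 40% to 60%. The DKO minus WT mean was -6.14 to 4.24 when each line was left out (0.0613 without DKO replicate 3) and 0.793 with pooled reads. The cause of these reversals was not tested, apart from the change of divisor in the share kept. Leaving out each DKO line gave 0 to 1 members called between DKO and WT. The 1 call came without DKO replicate 2, where 1 of all 127846 cytosines tested was called. The likelihood ratio test called 1 member and 7 of all 142691 cytosines tested. In the replicate block for line names, OG3 and AGH-2 each pair a WT with a DKO line. That fit called 1 member, the only call among the 142691 cytosines. The level, the edge and 40% to 60% alternatives and the neighbours measured in round spermatids alone were chosen after seeing the data. Of 277 values of the named clusters under alternatives, 274 stayed within 1 SD of the lines. Leaving out 1 of 5 lines cannot move their mean by 1 SD, so those values could not fall outside. The SD is also wide in clusters chosen for their spread, so this count does not measure stability. The depth requirement in all 6 libraries, and the single round spermatid library, limit which cytosines could be described.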

Other observations

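Requiring depth in every library left out part of the partly methylated cytosines. With at least 10 reads in round spermatids alone, 17959 of 477155 cytosines (3.76%) on chromosomes 1 to 19 were at 10% to 90%, and the members were 68.5% of these. With neighbours counted in round spermatids alone, 263 members (2.14%) were edges, 1295 (10.5%) lay inside methylated and 1552 (12.6%) inside unmethylated sequence, and 1016 (8.26%) had no neighbour.

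On chromosome X, which the rule leaves out, 288 of 4848 cytosines with at least 10 reads in all 6 libraries (5.94%) were at 10% to 90% in round spermatids. Their mean was 52.8% in round spermatids, 29.5% and 13.6% in the WT lines and 17.7%, 24.5% and 16.6% in the DKO lines. As on the autosomes, WT replicate 1 was the highest line and WT replicate 2 the lowest.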
